A study of Oryza sativa with 12 samples.

Results

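In florets of the transgenic rice line TGMS-Co27 and its wild-type parent H1493, 46 of 57194 probe sets of the Affymetrix rice array differed between the lines at both growth temperatures. A probe set is the group of short probes that measures a transcript, and its level was deposited as a log2 signal. A probe set was taken when its mean log2 signal differed between the lines by at least 1 in the same direction at high and at low temperature, when all 6 arrays of the higher line lay above all 6 arrays of the other line, and when both group means of the higher line were at least 7. Array controls were not eligible, and 1 probe set of a JAZ gene that met these conditions was left out. Of the 46 members, 37 were higher and 9 lower in TGMS-Co27, and they stand for 40 genes or array clusters (32 higher and 8 lower). As the members were chosen by these line differences, the differences are described here and carry no test.

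TGMS-Co27 carries an over-expressed construct derived from Ugp1 in the japonica background of H1493, and Ugp1, a UDP-glucose pyrophosphorylase gene, is cosuppressed in it. The groups were wild-type H1493 at high temperature (H1493HT), TGMS-Co27 at high temperature (Co27HT), H1493 at low temperature (H1493LT) and TGMS-Co27 at low temperature (Co27LT), each with 3 biological replicates and hence 12 arrays in all. Inflorescences at the stage of meiosis were collected in the field, in summer at a daily average of 28°C and, at a more southern site with shorter days, in winter at 20°C. Temperature, day length, site and season therefore changed together and cannot be told apart. TGMS-Co27 is male-sterile at high temperature and fertile at low temperature, and it is represented by this line alone, so that whatever distinguishes the line from H1493, the construct included, cannot be told apart in a line difference.

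In cosuppression, transcripts of an introduced gene set off RNA silencing that also reduces the matching gene of the plant. UDP-glucose pyrophosphorylase makes UDP-glucose, from which plants build sucrose, cellulose and callose, the wall polymer that encloses pollen mother cells during meiosis. Transposons, of which 2 families appear among the members, are mobile DNA elements whose transcription plants normally hold down.

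The arrays were alike in overall signal, with medians of 5.22 to 5.74 on the log2 scale and 43.7% to 46.1% of probe sets called present by the deposited detection calls. The Ugp1 probe set was lower in TGMS-Co27, with a line difference of -2.01 at high temperature (SE 0.07, limma adjusted p = 4.5e-06) and of -0.72 at low temperature (SE 0.07, limma adjusted p = 0.00151). The smaller of these kept it outside the members. Whether it reads transcripts of the plant's own gene, of the construct or of both was not tested. By quantitative RT-PCR the study found the plant's own transcripts strongly suppressed in both conditions and total Ugp1 slightly increased. It proposes that artefacts may partly explain that increase. By array, quantitative RT-PCR, northern and western blots together, it reports far weaker Ugp1 expression in Co27HT than in H1493HT. Within TGMS-Co27 it found more total and more correctly spliced transgenic Ugp1 RNA at low temperature. The Ugp1 probe set was likewise higher in Co27LT than in Co27HT, by 1.49 (SE 0.07, limma adjusted p = 1.22e-06). All 5 stamen and lodicule genes, 6 of 7 meiotic genes and 2 of 7 tapetum genes measured were called present on all 12 arrays, and the pistil gene MADS21 on none. Of 26 marker genes of tapetum, meiocytes, stamens, pistil and green tissue, 2 were called between the lines at high temperature (CAB2R and PORA, both green-tissue genes, lower in Co27HT) and 2 at low temperature (the tapetum genes TDR and CYP703A3, lower in Co27LT). Over all probe sets, 0.657% were called at high and 0.7% at low temperature in either direction. The log2 of the summed tapetum signal was 9.87 to 9.98 in H1493LT and 9.06 to 9.23 in Co27LT, and 10.5 to 10.7 in H1493HT and 10.4 to 10.5 in Co27HT, and its part in the line differences was not tested. In whole florets, fewer cells of a type and less RNA per cell cannot be told apart. None of the marker genes was represented among the members.

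A group of 64 reporter control probe sets on the array detects sequences from outside the rice genome, and 2 of them behaved like the members. RPTR-Os-K01193-1_at had log2 signals of 14.08, 14.13 and 14.18 in Co27HT and of 14.42, 14.29 and 14.34 in Co27LT, against 3.31, 3.88 and 0.40 in H1493HT, where it was called absent. In H1493LT, however, the same control was called present on all 3 arrays, at 8.19, 8.48 and 8.15. On the linear scale the H1493LT signal was 1.48% of the Co27LT signal, a log2 difference of 6.08 at low temperature, whereas at high temperature the control was at least 1490-fold higher in TGMS-Co27 (H1493HT arrays set at no less than the lowest signal called present on each). RPTR-Os-A00196-1_s_at lay between 8.68 and 9.93 on all TGMS-Co27 arrays and was called absent on all 6 H1493 arrays. The part of the H1493LT reporter signal in the low-temperature values below was not tested. Among the 37 members higher in TGMS-Co27, 10 had a low-temperature line difference above the 6.08 of that control.

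**Figure D1:**
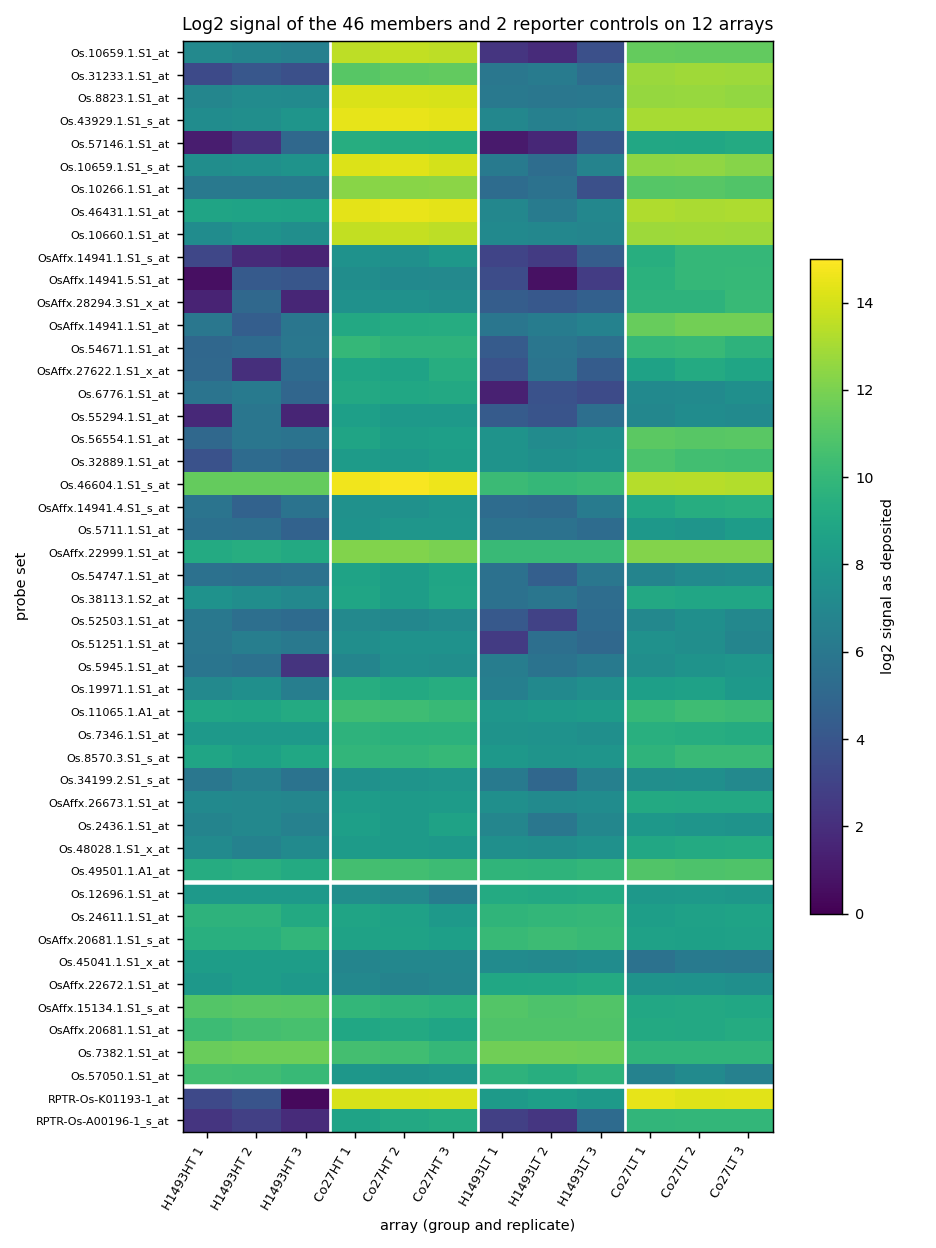
Log2 signal (colour) of the 46 members and of 2 reporter controls (rows) on the 12 arrays (columns, by group and replicate). The 37 upper rows are brighter on all 6 TGMS-Co27 arrays than on all 6 H1493 arrays, the next 9 rows are dimmer, and RPTR-Os-K01193-1_at is at 8.15 to 8.48 in H1493LT.

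The members higher in TGMS-Co27 ranged from probe sets that H1493 expressed as well to probe sets near the limit of detection in H1493. Over the 37 higher members the line difference had a median of 3.26 at high temperature (range 1.12 to 7.55) and of 3.31 at low temperature (range 1.03 to 8.79), where the medians over all 57258 probe sets tested were 0.03 and -0.01. In the limma fit, 0.257% of all probe sets were called higher in Co27HT than in H1493HT and 0.449% higher in Co27LT than in H1493LT, at an adjusted p under 0.05 and a difference of at least 2-fold. The corresponding shares called lower were 0.4% and 0.251%. A log2 difference of at least 4 at both temperatures was seen for 14 of the 37. Detection calls come from the same arrays, and the rule's demand for bright TGMS-Co27 signals favours present calls there. Of the 37, 36 were called present on all 6 TGMS-Co27 arrays, 15 on all 12 arrays, and 7 on all TGMS-Co27 arrays and no H1493 array. Replicates were close in TGMS-Co27, with a median SD of 0.13, and wider in H1493, with a median SD of 0.38 and a largest SD of 2.47 among dim values. For these members the rule set a lowest mean in TGMS-Co27 only, and 22 had a mean under 6 in at least 1 H1493 group. The SDs are therefore not read as a difference between the lines.

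Os.10659.1.S1_at showed the largest mean line difference. Its signals were 13.53, 13.60 and 13.51 in Co27HT and 7.05, 6.75 and 6.55 in H1493HT, and at low temperature they were 11.47, 11.37 and 11.38 in Co27LT and 2.33, 1.82 and 3.69 in H1493LT. No array of either line came near the other line, and within each line every low-temperature array lay below every high-temperature array. Where a probe set was called absent on all 3 arrays of a group, each such array was set at no less than the lowest signal called present on it. That lowest signal was 2.93 to 3.56 on the H1493 arrays, whereas Os.56554.1.S1_at was called absent at up to 7.72. It is therefore not a limit of detection, and an "at least" fold holds under this setting only and could be smaller under a higher one. In this way Os.10659.1.S1_at was at least 268-fold higher in Co27LT than in H1493LT. A second probe set of the same cluster, Os.10659.1.S1_s_at, read 14.20, 14.30 and 14.05 in Co27HT against 7.38, 7.46 and 7.72 in H1493HT, and 12.47, 12.50 and 12.30 in Co27LT against 6.18, 5.36 and 6.73 in H1493LT, so that the lines differed by 6.66 and 6.33. The array annotation assigns both to LOC9268308, an uncharacterised gene of chromosome 7 in the RefSeq assembly ASM3414082v1, whereas the study's tables give LOC_Os04g02490, so that the gene behind them is not settled.

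LOC4331398, an uncharacterised gene of chromosome 3, was measured by 2 members whose values ran in parallel. Os.8823.1.S1_at had signals of 14.13, 14.13 and 14.09 in Co27HT and 6.88, 7.23 and 7.18 in H1493HT, and of 12.66, 12.67 and 12.57 in Co27LT and 6.07, 5.96 and 6.01 in H1493LT. It was called present on all 12 arrays, so that the line differences of 7.02 (SE 0.10) and 6.62 (SE 0.10), or 130-fold and 98.3-fold in linear signal, were measured on both sides. Os.43929.1.S1_s_at gave 6.92 and 6.33. Among all members, the pair of lines was separated most widely here, with 5.34 between the lowest TGMS-Co27 array and the highest H1493 array of Os.8823.1.S1_at.

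The other members with a mean signal above 12 in Co27HT were Os.46604.1.S1_s_at, Os.46431.1.S1_at, Os.10660.1.S1_at, Os.10266.1.S1_at and OsAffx.22999.1.S1_at, none with a described function. Os.46431.1.S1_at, which has no gene in the annotation, read 14.39, 14.50 and 14.39 in Co27HT against 8.76, 8.68 and 8.65 in H1493HT, and 13.21, 13.07 and 13.14 in Co27LT against 6.96, 6.24 and 6.94 in H1493LT. Os.10660.1.S1_at (LOC_Os07g06834, an expressed protein of no described role) differed by 6.14 and 5.86, again with present calls on all 12 arrays. Os.46604.1.S1_s_at, also without a gene, was the brightest member and was called present on all wild-type arrays. Its signals were 14.70, 14.84 and 14.62 in Co27HT against 11.46, 11.43 and 11.48 in H1493HT, and 13.35, 13.39 and 13.28 in Co27LT against 10.20, 10.01 and 10.17 in H1493LT. Although its line differences of 3.26 and 3.21 were smaller than those above, the lines lay 1.80 apart at their nearest arrays. Os.10266.1.S1_at was absent on every H1493 array and at least 78.7-fold higher in Co27HT and at least 70.7-fold higher in Co27LT. Its gene is LOC4340325 on chromosome 6 by the array annotation and LOC_Os03g43100 in the study's tables, so that its identity is not settled either.

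**Figure D2:**
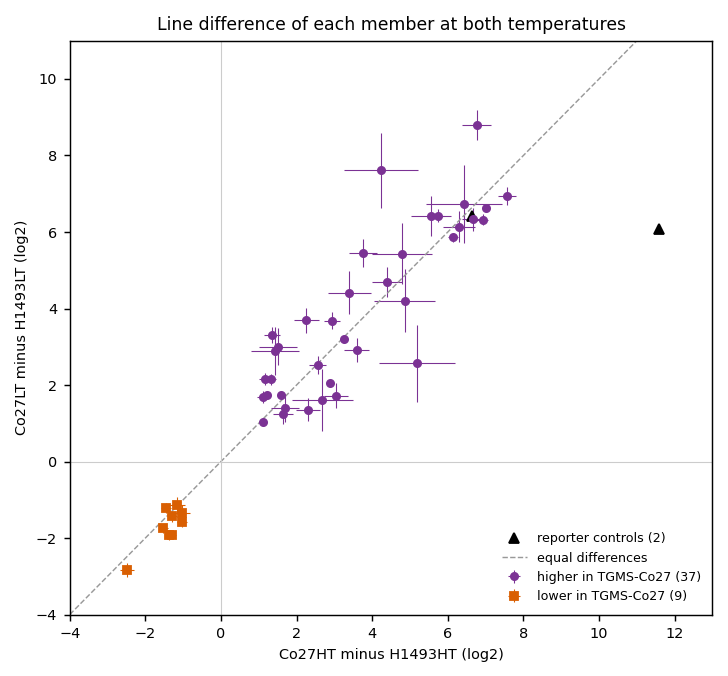
Line difference of each member at high temperature (horizontal axis, log2) and at low temperature (vertical axis, log2), with the standard errors of the fit as bars, and of 2 reporter controls without bars, as measured, also where H1493 was called absent. The 37 higher members lie between 1.03 and 8.79, the 9 lower members between -2.83 and -1.03, and the dashed line marks equal differences at both temperatures.

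Of the 12 members whose product the study's tables describe, 2 are transposon proteins, and both were higher in TGMS-Co27. Os.31233.1.S1_at (LOC4326189, LOC_Os01g36850) is described as a protein of the Pong sub-class, a family of rice transposons whose members encode a transposase. It read 11.09, 11.29 and 11.37 in Co27HT and 12.75, 12.84 and 12.78 in Co27LT. In H1493HT it was absent at 3.34, 4.08 and 3.66, and in H1493LT it was called present on all 3 arrays at 5.95, 6.22 and 5.38. The line difference was thus at least 188-fold at high temperature and 6.94 on the log2 scale (SE 0.24) at low temperature, above the 6.08 of the reporter control that was likewise present in H1493LT only among the wild-type groups. Os.19971.1.S1_at (LOC_Os05g41940), of the CACTA En/Spm sub-class, another group of DNA transposons, was present on all 12 arrays and differed less, by 2.30 (SE 0.31) and 1.36 (SE 0.31). A probe set of the Pong cluster that the annotation assigns to another gene, Os.31233.2.S1_at (LOC4324374), was bright on all 12 arrays and differed by -0.07 and -0.26 (SE 0.10 each, limma adjusted p = 0.809 and 0.348). Descriptions were at hand only for probe sets in the study's tables of changed genes, so that the share of transposon proteins cannot be set against the whole array.

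Enzymes of the cell wall or of sugar metabolism were encoded by 3 members. Os.54671.1.S1_at (LOC4345156, chromosome 8), a putative cinnamoyl-CoA reductase, the enzyme that commits phenylpropanoids to lignin monomers, read 9.97, 9.70 and 9.67 in Co27HT and 10.01, 10.12 and 9.68 in Co27LT. In H1493 it lay at 4.98, 5.25 and 5.96 at high and at 4.31, 5.91 and 5.49 at low temperature, with present calls on 3 of 6 arrays. The lines differed by 4.38 and 4.70 (SE 0.39 each) without overlap, whereas within each line the temperatures overlapped. Os.6776.1.S1_at (LOC4343487, chromosome 7), a putative glucan endo-1,3-beta-glucosidase, a class of enzymes that cleave callose and related glucans, read 9.06, 8.92 and 9.07 in Co27HT against 5.76, 6.13 and 4.97 in H1493HT, and 7.14, 7.16 and 7.50 in Co27LT against 1.35, 3.79 and 3.42 in H1493LT. It was called absent on all H1493LT arrays, which made it at least 14.8-fold higher in Co27LT. Os.12696.1.S1_at (LOC4335227, chromosome 4), a putative fructose-1,6-bisphosphatase, an enzyme class of sugar synthesis and photosynthetic carbon fixation, was lower in TGMS-Co27. It read 7.41, 7.04 and 6.32 in Co27HT against 8.07, 8.10 and 8.12 in H1493HT, and 8.02, 8.03 and 7.92 in Co27LT against 9.18, 9.06 and 9.17 in H1493LT. The highest TGMS-Co27 array was only 0.04 below the lowest H1493 array, the narrowest separation of any member. The summed signal of the 4 green-tissue markers measured moved the same way, from 12.7 to 12.9 in H1493HT and 11.8 in Co27HT and from 14.7 to 14.8 in H1493LT and 14.1 to 14.2 in Co27LT on the log2 scale, all 4 being present on every array, and their part in this result was not tested.

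Os.7346.1.S1_at (LOC4334412, chromosome 3), a putative pentatricopeptide protein, a family that acts on RNA in chloroplasts and mitochondria, differed by 1.59 (SE 0.09) and 1.74 (SE 0.09) with present calls on all arrays. Os.52503.1.S1_at (LOC_Os04g02920), of the leucine-rich repeat family, to which many receptors belong, differed by 1.51 and 3.00, and it was absent on all H1493LT arrays and at least 7.19-fold higher in Co27LT. Os.2436.1.S1_at (LOC9268730, chromosome 11), which the study's tables annotate with recognition of pollen, had means of 8.43 ± 0.23 in Co27HT and 7.84 ± 0.17 in Co27LT against 6.80 ± 0.22 in H1493HT and 6.60 ± 0.56 in H1493LT (SD, n = 3). Os.49501.1.A1_at (LOC4340553, chromosome 6), a putative TCP-domain protein, a plant transcription factor family that controls organ growth, was the member nearest the threshold, with differences of 1.12 and 1.03. The other higher members close to it were Os.48028.1.S1_x_at (LOC9267999, chromosome 10), at 1.12 and 1.68, and Os.8570.3.S1_s_at, at 1.16 and 2.15. Just outside lay Os.56134.1.S1_at (1.73 and 0.87), Os.14332.1.S1_at, a transferase (0.85 and 1.03), and OsAffx.15562.1.S1_s_at (0.98 and 0.83).

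The cluster OsAffx.14941 contributed 4 members, of which the study's tables place OsAffx.14941.1.S1_at and OsAffx.14941.1.S1_s_at at LOC_Os02g19700, a hypothetical protein annotated with aromatic amino acid biosynthesis. OsAffx.14941.1.S1_at read 9.07, 9.21 and 9.31 in Co27HT and 11.54, 11.78 and 11.82 in Co27LT, and it was absent on every H1493 array. It was at least 13.5-fold higher in Co27HT and at least 43.6-fold higher in Co27LT. For OsAffx.14941.1.S1_s_at and OsAffx.14941.5.S1_at, also absent in H1493 throughout, these bounds were 20.1 and 71.5, and 10.3 and 90.0. OsAffx.14941.4.S1_s_at, present on 3 of 6 H1493 arrays, differed by 2.26 and 3.69. All 4 had a larger line difference at low than at high temperature, and as they share a cluster they are not independent of each other. The other probe sets of the cluster, 3 in number, were dim and were not called between the lines, with present calls on 0, 0 and 1 of 12 arrays.

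The remaining higher members carry a gene without a described role or no gene at all. Os.57146.1.S1_at was absent on every H1493 array and at least 40.9-fold higher in Co27HT and 46.1-fold higher in Co27LT. OsAffx.28294.3.S1_x_at, likewise absent in H1493, was at least 12.0-fold and 43.2-fold higher. At high temperature OsAffx.27622.1.S1_x_at, Os.56554.1.S1_at (LOC4347693, chromosome 9) and Os.32889.1.S1_at, absent on all H1493HT arrays, were at least 20.9-fold, 7.68-fold and 12.0-fold higher in TGMS-Co27, and Os.55294.1.S1_at, present on 1 H1493HT array, differed by 5.18. Os.56554.1.S1_at read 8.75, 8.32 and 8.50 in Co27HT against 5.10, 5.92 and 5.73 in H1493HT, and 11.21, 11.12 and 11.14 in Co27LT against 7.72, 7.25 and 7.46 in H1493LT, where all 6 wild-type arrays were nevertheless called absent. Os.32889.1.S1_at read 8.21, 8.14 and 8.34 in Co27HT and 10.74, 10.44 and 10.42 in Co27LT. In H1493 it resembled the Pong transposon, being absent in H1493HT (3.77, 5.26 and 4.91) and present on all 3 H1493LT arrays (7.71, 7.49 and 7.66), and the part of the H1493LT reporter signal in this was not tested. Os.5945.1.S1_at (LOC4348135, chromosome 10) had means of 7.25 ± 0.37 in Co27HT and 7.67 ± 0.24 in Co27LT, and its line differences were 2.68 and 1.60, the first with a wide SE of 0.81. The 10 others (Os.5711.1.S1_at, OsAffx.22999.1.S1_at, Os.54747.1.S1_at, Os.38113.1.S2_at, Os.51251.1.S1_at, Os.11065.1.A1_at, Os.34199.2.S1_s_at, OsAffx.26673.1.S1_at, Os.8570.3.S1_s_at and Os.48028.1.S1_x_at) differed by 1.12 to 3.04 at high and by 1.40 to 3.31 at low temperature. Among these, Os.38113.1.S2_at showed the largest contrast between the temperatures, at 1.35 and 3.31.

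The 9 members lower in TGMS-Co27 changed by less and were well measured in both lines. Their line differences had a median of -1.29 at high temperature (-2.48 to -1.03) and of -1.58 at low temperature (-2.83 to -1.15), and 8 of 9 were called present on all 12 arrays. Os.57050.1.S1_at (LOC4329395, chromosome 2) had the largest fall. It read 7.94, 7.69 and 7.90 in Co27HT against 10.45, 10.39 and 10.13 in H1493HT, and 6.64, 7.17 and 6.59 in Co27LT against 9.71, 9.41 and 9.76 in H1493LT. The lowest wild-type array thus stood 1.47 above the highest TGMS-Co27 array. Os.7382.1.S1_at (LOC4339507, chromosome 5) had differences of -1.36 and -1.91, OsAffx.20681.1.S1_at -1.53 and -1.74, and OsAffx.15134.1.S1_s_at -1.29 and -1.91. The remaining lower members were OsAffx.22672.1.S1_at (-1.28 and -1.44), Os.45041.1.S1_x_at (-1.45 and -1.22), Os.24611.1.S1_at (LOC4330022, chromosome 2, -1.03 and -1.35) and OsAffx.20681.1.S1_s_at (-1.03 and -1.58), the last from the same cluster as OsAffx.20681.1.S1_at. Apart from the bisphosphatase, none of them has a described product. Just outside the threshold were OsAffx.23039.1.S1_x_at (-0.90 and -0.95), OsAffx.29470.1.S1_at (-0.89 and -1.73) and Os.53570.1.S1_at (-0.83 and -1.67).

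The size of the line difference was similar at both temperatures for most members. It differed by less than 1 on the log2 scale between the temperatures for 26 of the 37 higher members and for all 9 lower members. The difference was larger at low temperature for 19 of the 37 and for 7 of the 9. The extremes were Os.55294.1.S1_at, at 5.18 and 2.57, and OsAffx.14941.5.S1_at, at 4.23 and 7.61 as measured (at least 3.37 and 6.49), and these were called present on 1 and 0 of 6 H1493 arrays, with SDs of up to 2.47 in a wild-type group. These comparisons rest on the values that chose the members and were not tested.

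The change with growth temperature within each line was not a criterion of the rule. The rule did use the same arrays, and its demand that the lines not overlap limits how far a member can move with temperature. The counts and correlations below are therefore not independent of the choice. The change was tested with limma over all 57258 probe sets, at an adjusted p under 0.05 and a difference of at least 2-fold. In TGMS-Co27, 8 members (17.4%) rose and 10 (21.7%) fell at low temperature, where 7.05% and 7.3% of all probe sets were called in these directions. Among the 37 higher members the counts were 7 (18.9%) and 9 (24.3%), against 11.8% and 8.3% of the 19610 probe sets whose TGMS-Co27 means both reached 7, the level the members had to reach. In H1493, 4 members (8.7%) rose and 8 (17.4%) fell at low temperature, where 5.34% and 6.23% of all probe sets were called. Only 17 members reached a mean of 7 in both H1493 groups, and of these 1 rose and 2 fell, where 8.85% and 7.98% of the 19956 probe sets of that brightness were called. Of the 12 H1493 calls, 4 were of members absent on all wild-type arrays at 1 of the temperatures and 1 was of a member absent on all 6. In both lines and in the same direction, 10 members (21.7%) were called, against 7.93% of all probe sets, 8 were called in TGMS-Co27 alone, 2 in H1493 alone and 26 in neither. No member was called in opposite directions in the lines. Over all probe sets, 14.3% were called in TGMS-Co27 and 11.6% in H1493 in either direction. Shares over all probe sets called in 1 line alone, in neither or in opposite directions are not given here, so these counts are not read as particular to the members. Whether a response differed between the lines was not tested, because that difference is made of the values that chose the members. The counts depend on the scaling and on how members are counted. With each array centred on its median, 12 rose and 7 fell in TGMS-Co27, and 6 rose and 6 fell in H1493. Several members share a gene or array cluster. With 1 probe set for each of the 40, a setting chosen after seeing the data, 6 rose and 8 fell in TGMS-Co27. In H1493, 4 rose and 6 fell in that setting. Shares over all probe sets in these settings are not given here.

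**Figure D3:**
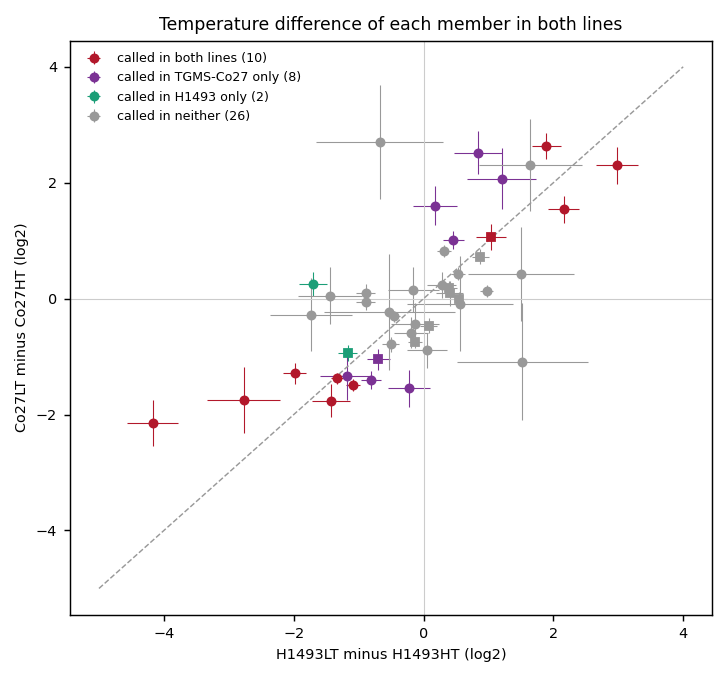
Difference between low and high temperature of each member in H1493 (horizontal axis, log2) and in TGMS-Co27 (vertical axis, log2), with standard errors, for members higher (circles) and lower (squares) in TGMS-Co27. Red marks the 10 members called in both lines, and over all 46 the differences correlated with r = 0.68.

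The members that fell at low temperature in both lines included the brightest ones. Os.46604.1.S1_s_at fell by 1.38 on the log2 scale in TGMS-Co27 (SE 0.09, limma adjusted p = 5.89e-06) and by 1.33 in H1493 (SE 0.09, limma adjusted p = 9.31e-06). Os.8823.1.S1_at, of LOC4331398, fell by 1.48 (SE 0.10, limma adjusted p = 7.74e-06) and by 1.08 (SE 0.10, limma adjusted p = 6.1e-05). Both were present on all 12 arrays and their temperature groups did not overlap in either line. Os.46431.1.S1_at fell by 1.29 in TGMS-Co27 and by 1.98 in H1493 (SE 0.18, limma adjusted p = 0.000432 and 3.78e-05). Os.10659.1.S1_at fell by 2.14 in TGMS-Co27 (SE 0.39, limma adjusted p = 0.00238). In H1493, where it was present on 1 array at high and on none at low temperature, it was at least 10.9-fold lower at low temperature (limma adjusted p = 5.05e-05), and with a floor at a log2 signal of 5 the fall was 1.79 in size. Its second probe set fell by 1.76 and by 1.43, the H1493 call being lost with only the 6 arrays compared. The glucan endo-1,3-beta-glucosidase Os.6776.1.S1_at fell by 1.75 in TGMS-Co27 (SE 0.57, limma adjusted p = 0.0442), a call lost with the replicate number as a block and with median centring. In H1493, where it was absent at low temperature, it was at least 4.74-fold lower (limma adjusted p = 0.00517), and this call was lost with the floor, at -0.63, and with only the 6 arrays compared. The low-temperature arrays of all these probe sets lay below the high-temperature arrays in both lines.

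At low temperature 4 members rose in both lines. The Pong transposon Os.31233.1.S1_at rose by 1.54 in TGMS-Co27 (SE 0.24, limma adjusted p = 0.000848). In H1493, where it was absent at high temperature, it was at least 4.47-fold higher at low temperature (limma adjusted p = 0.000127), a call lost with a floor at a log2 signal of 5, where the rise was 0.85. Os.32889.1.S1_at rose by 2.30 in TGMS-Co27 (SE 0.32, limma adjusted p = 0.000481) and, again from absent, was at least 7.86-fold higher in H1493LT (limma adjusted p = 0.000118). Os.56554.1.S1_at (LOC4347693) rose by 2.63 in TGMS-Co27 (SE 0.22, limma adjusted p = 1.96e-05). It was called in H1493 too (limma adjusted p = 0.000173), but no fold is given there because all 6 wild-type arrays were called absent. Os.31233.1.S1_at and Os.32889.1.S1_at, like RPTR-Os-K01193-1_at, went from absent in H1493HT to present in H1493LT. The fourth, the bisphosphatase Os.12696.1.S1_at, rose by 1.07 and 1.04 (SE 0.23, limma adjusted p = 0.00575 and 0.00729), the TGMS-Co27 call being lost with only the 6 arrays compared and the H1493 call under quantile normalization (0.98), in both lines from a high-temperature level that lay wholly below the low-temperature level.

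**Figure D4:**
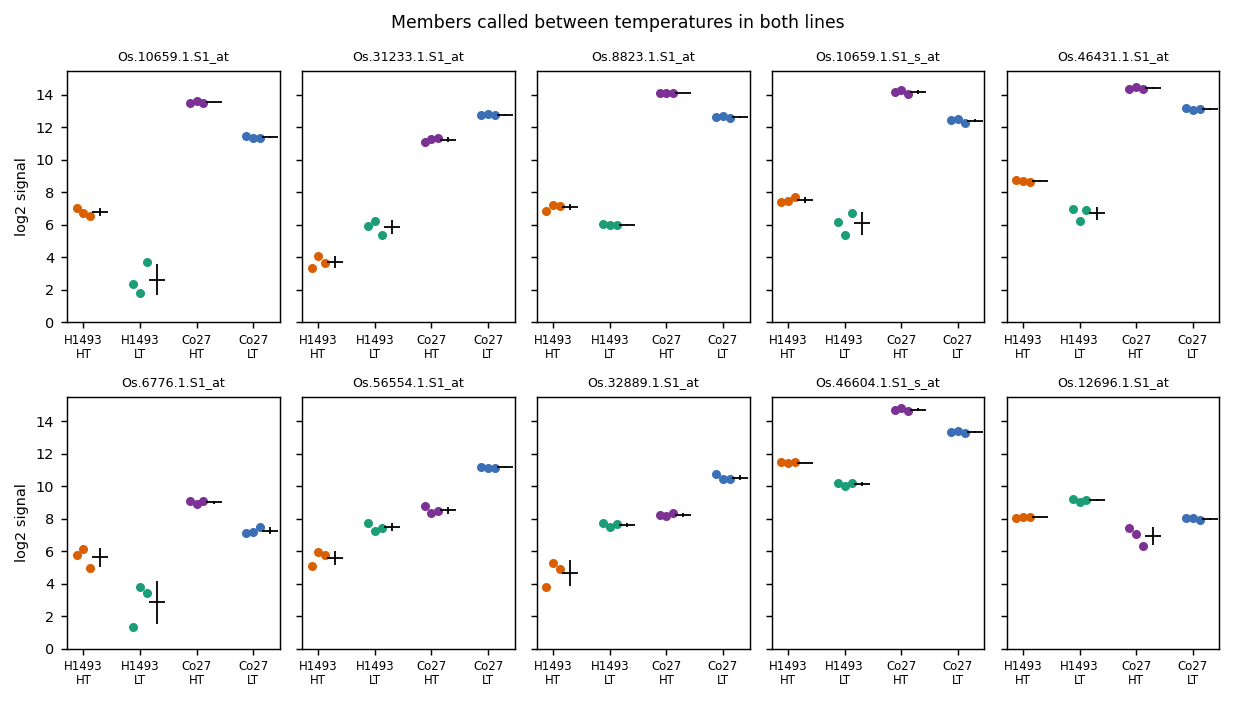
Log2 signal (vertical axis) of the 10 members called between temperatures in both lines, on each of the 12 arrays (coloured points, replicates side by side) with the group mean and SD (black). Of the 10, 6 lie lower and 4 lie higher at low temperature in both lines, and Os.46604.1.S1_s_at is the brightest, at 14.72 in Co27HT.

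The calls made in TGMS-Co27 alone included 3 probe sets of the OsAffx.14941 cluster, which rose by 2.52 (OsAffx.14941.1.S1_at, SE 0.37, limma adjusted p = 0.000639), 2.07 (OsAffx.14941.1.S1_s_at, SE 0.53, limma adjusted p = 0.0155) and 1.61 (OsAffx.14941.4.S1_s_at, SE 0.34, limma adjusted p = 0.00524). In H1493 the first 2 were absent on all arrays and have no fold, OsAffx.14941.4.S1_s_at differed by 0.17, and the limma adjusted p of the 3 were 0.143 to 0.783. Os.54747.1.S1_at fell by 1.55 in TGMS-Co27 (SE 0.32, limma adjusted p = 0.00497) and its change in H1493 was -0.23. Of the others, Os.43929.1.S1_s_at, Os.57050.1.S1_at and Os.48028.1.S1_x_at changed the same way in H1493 by less, and whether the lines differed in this was not tested. Os.43929.1.S1_s_at fell by 1.40 in TGMS-Co27 and its change in H1493 was -0.81 (limma adjusted p = 0.00313), under the 2-fold limit. Os.57050.1.S1_at fell by 1.05, with -0.70 in H1493 (limma adjusted p = 0.0175), and Os.48028.1.S1_x_at rose by 1.02, with 0.46 (limma adjusted p = 0.058). Os.10266.1.S1_at fell by 1.34 in TGMS-Co27. It was absent on every H1493 array and has no fold there (limma adjusted p = 0.0656). In H1493 alone, Os.38113.1.S2_at fell by 1.71 (SE 0.21, limma adjusted p = 0.000278) and Os.45041.1.S1_x_at by 1.17 (SE 0.14, limma adjusted p = 0.00024). In TGMS-Co27 the first changed by 0.25 (limma adjusted p = 0.455) and the second by -0.93 (limma adjusted p = 0.000806), which missed the call by the 2-fold limit alone. In contrast, the cinnamoyl-CoA reductase and the CACTA transposon were called in neither line, at 0.16 and -0.16 (SE 0.39) and at -0.89 and 0.05 (SE 0.31).

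Across the 46 members, the temperature difference in TGMS-Co27 correlated with that in H1493 with Pearson's r = 0.68 and Spearman's rho = 0.67, and over all 57258 probe sets Pearson's r was 0.50. For the 23 members whose 4 group means were all at least 6, r was 0.80, and for the 22697 probe sets of that kind it was 0.90. These values are across probe sets, several of which measure the same gene, and the 2 comparisons share no array. The sign was the same in both lines for 29 of the 37 higher and 7 of the 9 lower members, and the share over all probe sets is not given here.

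Of the 30 calls, 12 were lost under at least 1 alternative, several of them with little change in the fold. Os.10266.1.S1_at lost its TGMS-Co27 call when any of 9 single arrays was left out, at -1.38 to -1.30 against -1.34, and Os.6776.1.S1_at likewise, at -1.87 to -1.69 against -1.75, in both cases also when the array left out was of H1493. OsAffx.14941.1.S1_s_at lost its call without Co27HT replicate 2 or without Co27LT replicate 2 or 3 (1.96 to 1.99). Near the 2-fold limit, Os.48028.1.S1_x_at lost its call without replicate 3 of Co27HT or of Co27LT (0.95 and 0.98) and under quantile normalization (0.91), and Os.57050.1.S1_at without Co27HT replicate 1 or Co27LT replicate 1 or 3 (-0.94 in the last case). The bisphosphatase Os.12696.1.S1_at lost its TGMS-Co27 call without Co27HT replicate 3, at 0.77. Centring each array on its median ended 5 calls, those of Os.10266.1.S1_at (-1.05), Os.6776.1.S1_at (-1.47) and Os.57050.1.S1_at (-0.76) in TGMS-Co27 and of Os.8823.1.S1_at (-0.90) and Os.45041.1.S1_x_at (-0.99) in H1493, and quantile normalization ended those of Os.10266.1.S1_at (-1.29) in TGMS-Co27 and Os.8823.1.S1_at (-0.99) in H1493 as well.

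Exactly 1 gene was assigned to 18 members (39.1%), as to 39.2% of all eligible probe sets, and these 18 stand for 16 genes on 11 chromosomes. Probe sets ending in _x_at or _s_at, whose probes can match more than 1 transcript, made up 28.3% of the members and 17.4% of all, so that such a member may report a related transcript. Probe sets named OsAffx, 12 members, made up 26.1% and 44.6%. Neither the array annotation nor the study's tables name a gene or locus for 23 of the 46.

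Other probe sets of the same genes or clusters gave a divided picture. The only other probe set that the annotation assigns to a member's gene, Os.37590.1.S1_at of LOC4340325, was present on all 12 arrays and differed by 0.14 at high and -0.43 at low temperature (SE 0.17, limma adjusted p = 0.763 and 0.423), unlike the member Os.10266.1.S1_at. The gene of that member is not settled, as the study's tables give LOC_Os03g43100. Whether both probe sets measure the same gene was not tested. A cluster number was shared with a member by 16 further probe sets, of which 6 were never called present and 3 were called between the lines at either temperature, each higher in TGMS-Co27 like its partner. Both OsAffx.28294.2 probe sets were absent on every H1493 array. OsAffx.28294.2.S1_x_at was at least 12.0-fold higher in Co27HT and 16.8-fold higher in Co27LT (limma adjusted p = 0.000172 and 0.00112), and OsAffx.28294.2.S1_at by at least 1.82 and 3.80 on the log2 scale (limma adjusted p = 0.123 and 0.0479). Os.34199.1.S1_at, which measures LOC4325412, was higher by 2.01 and 1.39 (SE 0.34, limma adjusted p = 0.0235 and 0.108), close to the 1.70 and 1.40 of its partner Os.34199.2.S1_s_at. The partners of Os.8570.3.S1_s_at, Os.8570.2.S1_x_at and Os.8570.4.S1_at, were bright on all arrays and differed by no more than 0.06 in size.

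Genes next to the members in the reference gene order were examined to see whether neighbours differed with them. For the 16 genes with a position, the 5 nearest measured genes on each side gave 160 neighbours. The positions of LOC9268308 and LOC4340325 follow the array annotation, where the study's tables name other loci. Their neighbours may therefore not lie beside the gene measured. Of the 160 neighbours, 3 (1.88%) were called between the lines at high temperature and 2 (1.25%) at low temperature, where 0.657% and 0.7% of all probe sets were called. The share called among brighter probe sets is not given here. At an unadjusted p under 0.05, 40 neighbours (25.0%) passed at high and 21 (13.1%) at low temperature, against 16.8% and 10.2% of all probe sets and 28.5% and 15.1% of those with a mean signal of at least 6. Called at high temperature were LOC4343482, near the glucan endo-1,3-beta-glucosidase gene (3.14, limma adjusted p = 0.0234), LOC4345153, near the cinnamoyl-CoA reductase gene (1.05, limma adjusted p = 0.0468), and LOC4349011, near LOC9267999 (-1.77, limma adjusted p = 0.000109). Called at low temperature were LOC4347695, near LOC4347693 (2.62, limma adjusted p = 0.00116), and LOC4330027, near LOC4330022 (1.68, limma adjusted p = 0.0446). LOC4349011 and LOC4330027 moved opposite to the member next to them. None was called at both temperatures. The size of the line difference of the 134 neighbours with a mean signal of at least 6 had a median of 0.17 at high and 0.10 at low temperature, against 0.19 and 0.12 for all probe sets of that brightness. The counts are small and changed with several settings, and without any of 4 high-temperature arrays (H1493HT replicates 1 and 3, Co27HT replicates 1 and 2) the high-temperature count was 1.

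Genes of RNA silencing, the process behind cosuppression, were not among the members, which are only 46 of 57194 probe sets. Of 18 measured genes of Argonaute, Dicer-like and RNA-dependent RNA polymerase families and their partners, 17 were called present on all 12 arrays. None was called between the lines at high temperature (limma, adjusted p under 0.05 and 2-fold), where 4 passed an unadjusted p under 0.05, and 1 was called lower in Co27LT than in H1493LT, AGO3 (LOC4336992), at 5.84 against 7.04 (limma adjusted p = 0.0243). Over all probe sets, 0.657% were called at high and 0.7% at low temperature. At high temperature 16.8% of all probe sets passed the unadjusted threshold, and 28.5% of those with a mean signal of at least 6. The counts are not read as particular to these genes. The second UDP-glucose pyrophosphorylase gene, UGP2, was lower by -1.39 in Co27HT (SE 0.28, limma adjusted p = 0.0384) and by -0.43 in Co27LT (SE 0.28, limma adjusted p = 0.721), and with TGMS-Co27 means of 5.36 and 5.89 it was dim.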

How the data were processed

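Levels are MAS 5.0 signals that the authors deposited on the log2 scale with detection calls (the tool is named in the submitters' processing notes, its version not given in the sources used here). Their linear values share a 2% trimmed mean (500.065 to 500.076) on every array, and quantile normalization, which the methods name, is not seen in them, so they were used unchanged. Differences were fitted with limma 3.58.1 in R 4.3.3 (4 group means, 12 arrays, 57258 probe sets after 123 controls were left out, Benjamini-Hochberg adjustment). In a self-test on simulated data for the TGMS-Co27 temperature comparison (57258 probe sets), 42%, 92%, 98% and 98% of log2 changes of 1, 1.5, 2 and 3 were recovered. The changes were placed in probe sets with a mean of at least 7, 50 for each size, and all others were left unchanged. A change of 1 lies at the 2-fold limit of the call itself. In the data 14.3% of probe sets were called in this comparison, so these rates are not the sensitivity for the members or for dim values. With 3 arrays per group precision is limited. Each p-value sets a difference against the spread between arrays, estimated over all 4 groups together, so that an array outside a comparison also affects its calls. A mean under 6 is called dim.

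Genes were named through the array's annotation, chromosomes and neighbours through RefSeq (ASM3414082v1), and loci and descriptions through text columns of the study's tables, which were not complete as received. Coordinates and sequences were not used here. The members and the gene lists were chosen with earlier results of these data known. Named are all members with 1 gene or a study locus, the 10 largest line differences in each direction and those beside the threshold, and the others were named after their values were seen. Neighbours and list genes are represented by their brightest probe set. Alternatives covered the unadjusted threshold, scaling, filters, a floor, the fit, the replicate number as a block and each array left out.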

Additional observations from a re-analysis of the deposited data

Results flagged for a closer look

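The 2 reporter control probe sets described above are not genes of rice and are not members, and their values were only set beside those of the members. RPTR-Os-K01193-1_at averaged 14.13 in Co27HT and 14.35 in Co27LT, and against 2.53 in H1493HT, where it was called absent, it averaged 8.27 in H1493LT, where it was called present on all 3 arrays of a group without the construct. RPTR-Os-A00196-1_s_at averaged 8.99 in Co27HT and 9.92 in Co27LT and was absent in H1493. What these signals come from was not tested. Both were kept in the fit over 57258 probe sets.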

How the results depend on the processing

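The rule gave 37 higher and 9 lower members, and 24 higher members with a signal of at least 8 and 2 lower members with a difference of at least 1.5. With each array left out in turn the counts ran from 34 to 39 and from 7 to 10. Of the 30 calls of members between temperatures, 12 were lost under at least 1 alternative and none changed sign. Leaving out 1 array moved the TGMS-Co27 counts from 6 to 10 (higher at low temperature) and from 7 to 10 (lower), and the H1493 counts from 4 to 7, the highest without H1493HT replicate 2, and from 8 to 10. Without probe sets ending in _x_at or _s_at, 5 members were higher in Co27LT and 5 lower in H1493LT. Median centring moved all temperature differences by 0.28 in TGMS-Co27 and 0.18 in H1493. With it, 12 members rose and 7 fell in TGMS-Co27, and 6 rose and 6 fell in H1493.

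Same-numbered arrays did not deviate together (r between -0.097 and 0.04), so the replicate number pairs nothing. With it as a block, 8 and 9 members were called in TGMS-Co27 and 4 and 8 in H1493, and 1 neighbour was called at each temperature.

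Neighbours called at high temperature numbered 7 at the unadjusted threshold, 1 with a mean of at least 6, 0 with only the 6 arrays compared and 0 with 2 genes on each side, and 1 to 3 with an array left out. At low temperature they numbered 7 at the unadjusted threshold, 1 with 2 and 5 with 10 genes on each side, and 1 to 4 with an array left out, namely 4 without H1493LT replicate 2 and 1 without H1493HT replicate 2 or 3, Co27HT replicate 2 or 3, H1493LT replicate 3 or Co27LT replicate 3. By shared cluster number, chosen after seeing the data, 2 other probe sets were called between the lines at each temperature, where the 1 probe set that shares a gene with a member gave 0 calls, from 0 to 0 with an array left out (limma).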
